A study of Schizosaccharomyces pombe with 8 samples.

Results

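The fission yeast Schizosaccharomyces pombe has many annotated noncoding RNAs that begin or end inside a protein-coding gene on their own strand. A feature of the noncoding count table was taken when its span overlapped a feature of the coding table by at least 1 base, on the same chromosome and the same strand, apart from 3 features named as exceptions. This gave 289 of 1528 noncoding features, with 124 on chromosome I, 104 on chromosome II and 61 on chromosome III. No count entered the choice. Of the others, 812 overlapped a coding gene on the opposite strand only and 426 overlapped none.

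RNA depleted of ribosomal RNA was sequenced from 8 libraries in 4 groups of 2. The groups were a wild-type strain and strains labelled nht1-delta, iec1-delta and iec5-delta, all grown in the rich medium YEA to mid-log phase. Nht1, Iec1 and Iec5 are subunits of the fission yeast INO80 complex, which uses ATP to move and remodel nucleosomes. Each genotype is 1 named strain (SPJ1577, CS2354, CS2379 and CS2370), and the labels do not say whether its replicates came from separate cultures, so p-values measure only the spread between these libraries, which may be technical.

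Transcription through the start of a gene can repress that gene by placing nucleosomes over its promoter, and fission yeast controls its phosphate genes in this way. A noncoding RNA is made across the promoters of pho1, pho84 and tgp1, and the downstream gene is expressed when that transcription stops early or is lost. Several such RNAs carry clusters of a short motif that is read by Mmi1, a protein that sends meiotic and noncoding transcripts to the nuclear exosome, a complex that degrades RNA. A noncoding feature that overlaps a gene can also be a longer leader or trailer of the gene's own messenger RNA, and short reads cannot tell these apart where they overlap.

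The RNAs that RefSeq annotates as acting on a neighbour in cis or in sense were prt (listed as SPNCRNA.1712, or nc-pho1) upstream of pho1, prt2 upstream of pho84, nam1 upstream of byr2, and nc-tgp1 (SPNCRNA.1698) upstream of tgp1. A further RNA, nc-tco1 (SPNCRNA.600), is described as a translationally silent transcript of the tco1 locus. The first stretch of 60 bases with the most matches to TNAAAC, the core of the motif read by Mmi1, was taken in prt, prt2, nc-tgp1 and nam1. The 120 bases centred on its matches are shown because the motif is the sequence feature these RNAs are known for. Sequences are RefSeq, build ASM294v3, 5′ to 3′ on the strand of the RNA, and capitals mark the matches.
prt, chrII:4446717-4446836, plus strand: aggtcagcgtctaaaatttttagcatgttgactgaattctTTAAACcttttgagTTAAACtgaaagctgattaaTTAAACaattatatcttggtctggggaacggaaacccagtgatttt
prt2, chrII:4443309-4443428, plus strand: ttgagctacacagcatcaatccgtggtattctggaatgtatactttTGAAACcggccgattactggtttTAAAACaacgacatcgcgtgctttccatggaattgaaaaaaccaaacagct
nc-tgp1, chrII:353340-353459, minus strand: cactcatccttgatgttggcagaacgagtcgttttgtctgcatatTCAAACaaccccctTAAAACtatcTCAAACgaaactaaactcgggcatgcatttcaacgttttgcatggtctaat
nam1, chrII:1742678-1742797, minus strand: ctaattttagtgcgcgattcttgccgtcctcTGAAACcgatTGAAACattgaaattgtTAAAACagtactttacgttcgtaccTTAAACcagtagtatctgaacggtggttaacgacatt

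The windows hold 3 matches in prt, 2 in prt2, 3 in nc-tgp1 and 4 in nam1. Over the whole RNA, the own strand and the opposite strand held 6 and 7 matches in prt, 11 and 6 in prt2, 6 and 8 in nc-tgp1, and 9 and 5 in nam1. At least 3 matches within 60 bases of the own strand were found in 6 of the 268 same-strand-overlapping features with a sequence (2.24%), namely prt, nc-tgp1, nam1, SPNCRNA.1134, SPNCRNA.500 and SPNCRNA.623. On the opposite strand it was 1 of the 268 (0.373%). Over all 1428 noncoding features with a sequence the share was 1.33% on the own strand and 1.4% on the opposite strand. The difference between strands was not tested. TNAAAC was the only motif searched, and a match is a description of letters, not a site.

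Most of the overlaps were short. The features had a median length of 1119 bases, from 75 to 4620, and shared a median of 66 bases with the same-strand gene of largest overlap. The median share of a feature's span in same-strand genes was 5.68%. It was under 10% in 207 features and over 90% in 43. By position, 177 features (61.2%) ran over the start of the gene, 66 over its end, 39 lay within it and 7 ran around it. They paired with 286 distinct genes, and 11 features overlapped 2 same-strand genes. RefSeq describes 177 of the 268 matched features as a possible alternative UTR.

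The joints between feature and gene can be seen at single bases, and 3 are shown because they mark a minimal, a short and a longer overlap. Capitals are bases inside the gene, with the gene's bounds taken from the deposited coding table and the letters from ASM294v3, on the strand of the gene. In the ASM294v3 annotation SPNCRNA.413 and SPNCRNA.1550 overlap no same-strand protein-coding gene.
SPNCRNA.413 into xdj1, chrII:3150459-3150475: catgtataattctatAA
SPNCRNA.982 into mok11, chrI:4375286-4375304: aactgaagaaccagtATTT
SPNCRNA.1550 into tdh1, chrII:2807519-2807548: cacaccacggctgatGGCTGCTGTGTGGGA
The rule's edge lies between overlaps of 2, 3, 4 and 7 bases and ends that lie 1 or 2 positions apart, where 1 means directly adjacent. Inside it, SPNCRNA.413 had 0 to 7 counts per library, SPNCRNA.1053 (3 bases into hgh1) had 0 in every library, SPNCRNA.982 had 55 to 126 and SPNCRNA.1623 (7 bases into rps1801) had 72 to 138. Just outside it, SPNCRNA.1572 (1 position from gsf1) had 0 to 6 and SPNCRNA.1600 (1 position from dcd1) 106 to 219. SPNCRNA.1099 and SPNCRNA.1200, each 2 positions from a same-strand gene not named here, had 27 to 58 and 38 to 75. They overlap hsp3101 and rik1, respectively, on the opposite strand. The features on both sides of the rule covered a like range of counts.

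The class depends on the annotation of gene ends. All but 2 of the 268 matched features have the same coordinates in ASM294v3, yet 185 of the 268 overlap a same-strand protein-coding gene there and 83 overlap none. Among these 83 are 2 of the features called below in nht1 and 5 of those called in iec1, namely SPNCRNA.1550, SPNCRNA.1271, SPNCRNA.634, SPNCRNA.1150 and SPNCRNA.1085. An overlap with genes on the opposite strand was also common. It was present in 143 features, whose median share of span in opposite-strand genes was 81.9%, and absent in 146. Of the 66 features over a gene end, 47 overlapped an opposite-strand gene, against 85 of the 177 over a gene start.

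**Figure D1:**
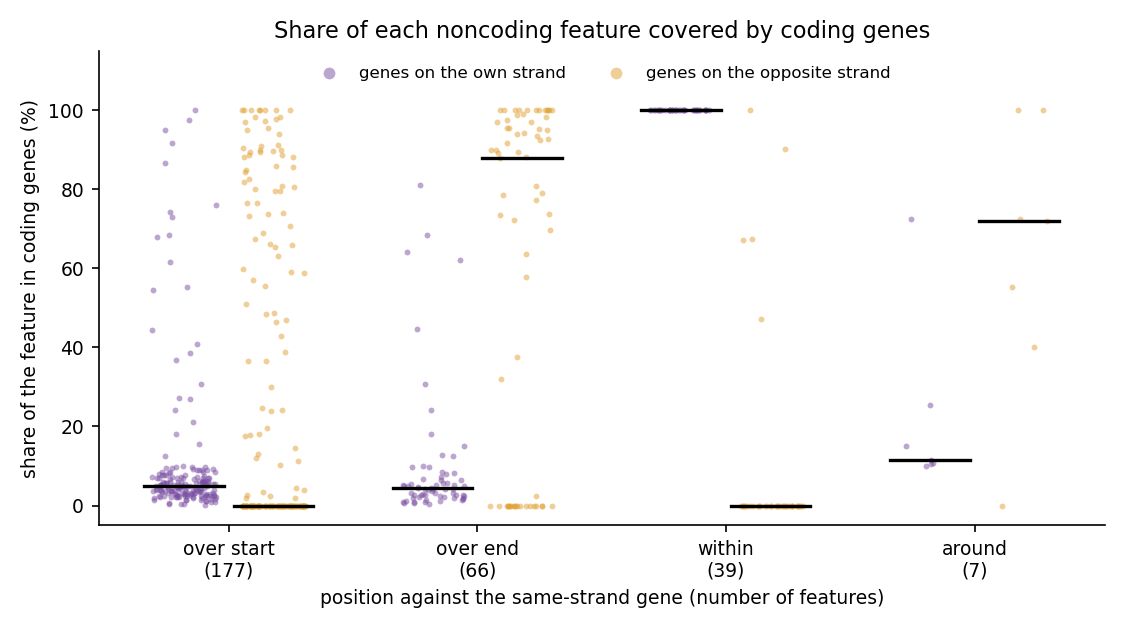
Share of each feature's span (percent, vertical axis) that lies in coding genes of its own strand (purple) and of the opposite strand (orange), by position against the same-strand gene; each point is 1 feature and bars are medians. The own-strand medians are 4.98% for the 177 features over a start, 4.39% for the 66 over an end, 100% for the 39 within and 11.6% for the 7 around a gene.

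How the reads had been assigned decides what a count of such a feature measures. Although the library kit keeps strand, all 199 coding genes wholly covered by coding genes of the opposite strand had 0 counts in all 8 libraries, as had all 6 wholly covered on their own strand. Among 2523 coding genes that overlap no other, 20 were at 0. Noncoding features wholly covered by other noncoding features were also all at 0, with 56 of 56 on the opposite strand and 39 of 39 on the own strand. Noncoding features wholly inside opposite-strand coding genes were not: 11 of 247 were at 0, and the median over the 247 was 945 counts per kb over the 8 libraries together. The median was 250 counts per kb for 35 features wholly inside a gene of their own strand and 33.8 for 426 that overlap no coding gene. In these tables, then, a read over 2 features of the same table was not counted, strand did not separate the counts, and a read over a gene and a noncoding feature could count in both tables. Which strand option the counting step used is not stated in the labels.

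Levels are given as CPM, the counts scaled to the coding library size. Coding totals ran from 2208165 to 3426063 counts and noncoding totals from 374760 to 540394, so that 3 counts equal 0.875 to 1.37 CPM. The features took 14.4% to 15.9% of noncoding counts, and SPNCRNA.1597 and SPNCRNA.53 together held 34.6% of the features' own counts. All 8 libraries gave 0 counts for 30 features, and 26 of these are wholly covered by other noncoding features. The iec5 gene, 1 of the 3 that the labels give as deleted, was at 12.4 and 12.8 CPM in wild type and at 3.30 and 1.46 in iec5 (log2 fold change −2.41, adjusted p = 0.0280 by edgeR). The nht1 gene was at 48.7 and 41.5 CPM in wild type and at 24.9 and 34.9 in nht1 (−0.60, adjusted p = 0.211). The iec1 gene was higher in the libraries labelled iec1, at 95.3 and 88.4 CPM against 40.5 and 36.3 (1.25, adjusted p = 0.000754), which goes against the label. Every direction given for iec1 is therefore that of the libraries labelled iec1.

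Levels per kb were also set against how much of a feature lies in a gene. Of 289, 219 passed the filter on low counts, and the 70 that did not had at most 15 counts in any library. Of 110 features with at least 50% of their span in an opposite-strand gene, 106 were tested, at a median of 39.0 CPM per kb, and their level per kb was a median 1.04 times that of the opposite-strand gene. For 52 with at least 50% in a same-strand gene, 30 were tested, at a median of 25.6 CPM per kb and 0.811 times that gene. For 88 with under 10% in any coding gene, 55 were tested, at a median of 6.79 CPM per kb and 0.133 times the same-strand gene. The remaining 39 had 28 tested at 14.1 CPM per kb. Over all members of these classes, untested ones included, the medians were 37.9, 6.13, 3.32 and 8.80 CPM per kb, so that the class in same-strand genes then lay below the remaining 39.

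**Figure D2:**
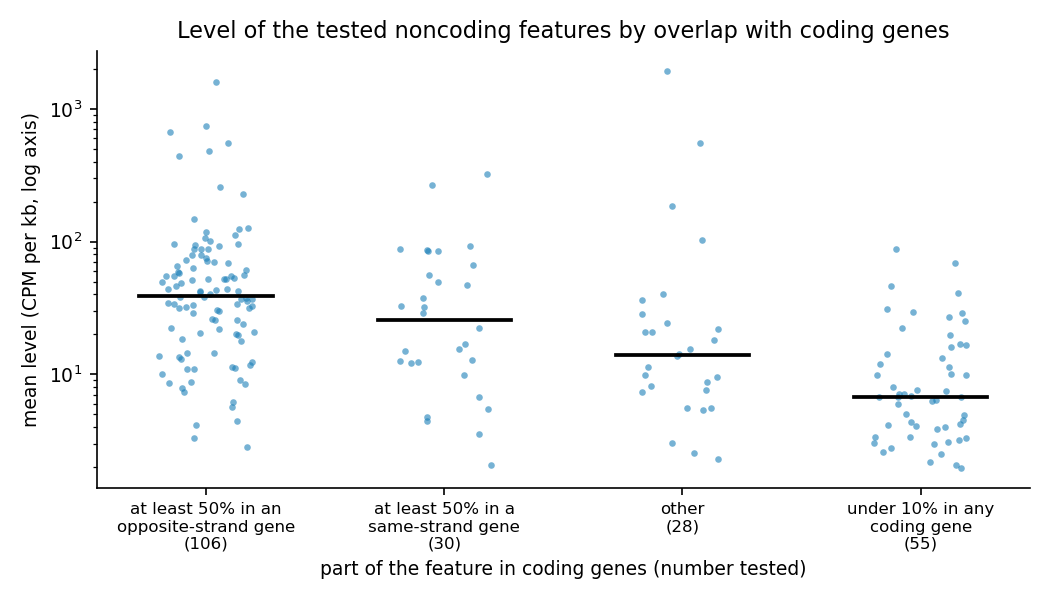
Mean level of each tested feature over 8 libraries (CPM per kb, log axis) by the part of it that lies in coding genes; points are features and bars are medians. The medians of these tested features are 39.0, 25.6, 14.1 and 6.79 CPM per kb from left to right, and over all features of the same classes they are 37.9, 6.13, 8.80 and 3.32.

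The feature with the highest level per kb was SPNCRNA.53 (prl53), a polyadenylated RNA over the end of SPAC27E2.11c, at a mean of 1941 CPM per kb. It was at 3672 and 3544 CPM in wild type, 3830 and 3784 in nht1, 3915 and 3226 in iec1, and 3757 and 3030 in iec5. Both nht1 libraries lay above wild type, and iec1 and iec5 overlapped it. SPNCRNA.1597 followed at 1597 CPM per kb. It spans ina17, which codes for an assembly factor of mitochondrial ATP synthase, and part of the lysine synthesis gene lys9 on the opposite strand. Its libraries held 4033 and 4525 CPM in wild type, 3906 and 5156 in nht1, 5652 and 5591 in iec1, and 4080 and 5088 in iec5, above lys9 at 1359 to 1809 CPM and ina17 at 32.6 to 41.7. In every library the excess over all overlapped coding genes together was at least 6680 counts for SPNCRNA.53 and 6958 for SPNCRNA.1597.

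Other high features had the level of a gene on the other strand. SPNCRNA.1103 was at 1534 and 1436 CPM in wild type, and the ribosomal protein gene rpl902, opposite to it, at 1521 and 1423. In the libraries labelled iec1 the feature was at 1393 and 1286 and rpl902 at 1381 and 1268. SPNCRNA.1611 runs from a histone H3 gene, hht3, across the histone H4 gene hhf3 on the opposite strand, and held 617 and 852 CPM in wild type, against 616 and 852 for hhf3. SPNCRNA.1076 at 554 CPM per kb, SPNCRNA.1261 at 552 and SPNCRNA.1517 at 441 lie in part over sum1, rps20 and srm1 on the opposite strand. In all libraries, 54 features held more counts than their same-strand gene, but only 9 held more than all the coding genes they overlap together. These 9 were SPNCRNA.1597, SPNCRNA.53, SPNCRNA.1712, prt2, SPNCRNA.1698, SPNCRNA.498, SPNCRNA.1025, SPNCRNA.1567 and SPNCRNA.1618. The coding genes over SPNCRNA.498 overlap each other, and reads over both were not counted for either gene.

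Against wild type, features changed in nht1 and in the libraries labelled iec1, and none was called in iec5. In nht1, 7 features rose and 4 fell out of 219 tested (5.02%), where edgeR called 6.57% of all 1096 tested noncoding features, 5.29% higher and 1.28% lower. In iec1, 13 rose and 4 fell (7.76%), where it called 14.7% of all, 12.3% higher and 2.37% lower. With library sizes from the noncoding table itself, the iec1 split was 10 higher and 11 lower. In iec5 no feature passed, where 1.46% of all did, with 9 features at an unadjusted p under 0.05 and 0 calls by DESeq2. The median log2 fold change was 0.01 over the tested features and 0.02 over all in nht1, and 0.04 and 0.08 in iec1. The groups share the wild-type libraries, so that values of nht1 and iec1 stand side by side below and are not independent.

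**Figure D3:**
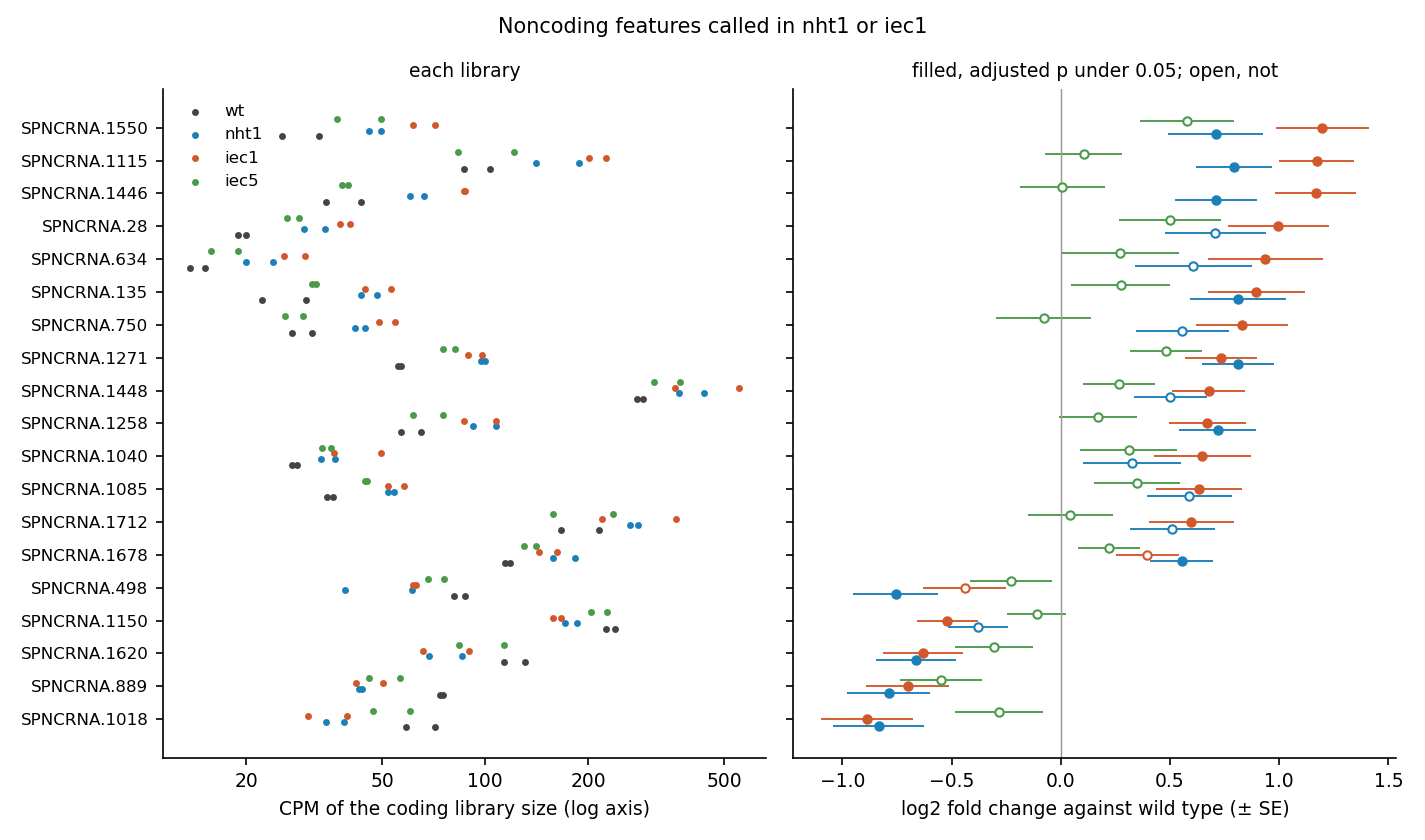
Left, CPM (log axis) of each library for the 19 features called in nht1 or in the libraries labelled iec1; right, log2 fold change against wild type with its standard error, filled where the adjusted p is under 0.05. SPNCRNA.1550 has the largest rise in iec1 (1.20) and SPNCRNA.1018 the largest fall (−0.89), and no iec5 point is filled.

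Among features that rose and have little of their span in a gene, SPNCRNA.1550 lies upstream of tdh1, the gene of the glycolytic enzyme glyceraldehyde-3-phosphate dehydrogenase, on chrII:2805984-2807593, with 60 bases over its start. It was at 25.4 and 32.7 CPM in wild type, 45.6 and 49.4 in nht1, 61.4 and 71.3 in iec1, and 36.9 and 49.6 in iec5. The libraries labelled nht1, iec1 and iec5 all lay above both of wild type, with a log2 fold change of 0.71 in nht1 (SE 0.22, adjusted p = 0.0491 by edgeR) and 1.20 in iec1 (SE 0.21, adjusted p = 0.000261). The tdh1 gene itself held 17472 and 17203 CPM in wild type and 23925 and 21483 in iec1 (0.39, SE 0.11, adjusted p = 0.0308). Per kb, tdh1 was at 13290 CPM and the feature at 28.9, so the 60 shared bases could supply much of the feature's count. That part was not tested. The nht1 call of SPNCRNA.1550 was lost in 6 of 8 fits that left out 1 library, of wild type, nht1 or iec1. It was also lost with DESeq2, RLE factors, noncoding library sizes and the fit of 2 groups.

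SPNCRNA.1258 runs over the end of tpx1, which codes for thioredoxin peroxidase, on chrIII:2084111-2085030, with 9.67% of its span in a gene. Per kb, tpx1 was at 824 CPM and the feature at 88.6, so the shared bases could supply much of the feature's count. That part was not tested. Wild type held 56.5 and 64.7 CPM, nht1 92.2 and 108, iec1 108 and 86.6, and iec5 75.2 and 61.5, so that nht1 and iec1 lay above wild type and iec5 overlapped it. The log2 fold change of SPNCRNA.1258 was 0.72 in nht1 (SE 0.18, adjusted p = 0.0118 by edgeR) and 0.67 in iec1 (SE 0.18, adjusted p = 0.00996). The tpx1 gene moved with it, from 410 and 465 CPM in wild type to 758 and 813 in nht1 (0.84, SE 0.15, adjusted p = 0.00247) and 868 and 678 in iec1 (0.82, adjusted p = 0.00121). Another called feature had a thioredoxin reductase gene on its opposite strand. SPNCRNA.1678, which overlaps the start of the sterol gene erg26, has 80.7% of its span in trr1, the thioredoxin reductase gene, and rose from 118 and 114 CPM to 158 and 183 in nht1 (0.55, SE 0.14, adjusted p = 0.0175). The trr1 gene rose by 0.57 in nht1 (adjusted p = 0.0250) and 0.50 in iec1 (adjusted p = 0.0268).

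SPNCRNA.1115 is a long feature on chrIII:170340-174289 that shares 193 bases with SPCC1235.01, a gene for an uncharacterized protein, and has 70.3% of its span in other noncoding features. It held 103 and 86.4 CPM in wild type, 141 and 188 in nht1, 201 and 226 in iec1, and 121 and 83.4 in iec5. Both nht1 and iec1 lay above wild type, with changes of 0.79 (SE 0.17, adjusted p = 0.00538 by edgeR) and 1.17 (SE 0.17, adjusted p = 2.73e-05). SPCC1235.01 was at 326 and 283 CPM in wild type, 472 and 522 in nht1, and 687 and 680 in iec1, and changed by 0.71 (adjusted p = 0.00544) and 1.17 (adjusted p = 1.88e-05). In iec5 it stood at 332 and 284 CPM, over the range of wild type.

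Within a gene of their own strand, SPNCRNA.135 and SPNCRNA.28 rose. SPNCRNA.135, annotated as a probable 5′ UTR of SPBC365.16, was at 29.9 and 22.3 CPM in wild type, 43.4 and 48.4 in nht1, 53.1 and 44.6 in iec1, and 32.0 and 31.2 in iec5. Its change was 0.81 in nht1 (SE 0.22, adjusted p = 0.0249 by edgeR) and 0.90 in iec1 (SE 0.22, adjusted p = 0.00577), and that of SPBC365.16 was 0.78 (adjusted p = 0.0463) and 0.996 (adjusted p = 0.00484). SPNCRNA.28 (prl28) lies within the purine transporter gene SPAC29B12.14c and held 19.95 and 18.9 CPM in wild type, 34.0 and 29.5 in nht1, 40.3 and 37.6 in iec1, and 26.4 and 28.6 in iec5. It rose by 0.997 in iec1 (SE 0.23, adjusted p = 0.00312), where the gene rose by 0.67 (adjusted p = 0.00723).

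Some of the other rises, SPNCRNA.1446 and SPNCRNA.1271 among them, were in features with an opposite-strand gene over much of their span, and went with that gene. SPNCRNA.1446, on chrII:1563622-1565852, shares 54 bases with ask1, for a subunit of the DASH complex at kinetochores, and 89.4% of its span with meu25 on the other strand. Wild type held 34.2 and 43.4 CPM, nht1 66.4 and 60.4, iec1 86.6 and 87.5, and iec5 38.2 and 39.7, with changes of 0.71 in nht1 (SE 0.19, adjusted p = 0.0214 by edgeR) and 1.17 in iec1 (SE 0.19, adjusted p = 7.13e-05). The meu25 gene had nearly the same values, with 37.5 and 49.2 CPM in wild type and 85.6 and 82.8 in iec1 (0.96, adjusted p = 0.00232), and ask1 rose by 0.93 in iec1 (SE 0.26, adjusted p = 0.0283). SPNCRNA.1271, on chrIII:2204097-2205588, shares 37 bases with the ribosome assembly gene fap7 and lies wholly in ckk2, a protein kinase gene of the opposite strand. It was at 56.5 and 55.6 CPM in wild type, 96.9 and 100 in nht1, 97.6 and 89.2 in iec1, and 81.4 and 75.2 in iec5. All 3 mutant-labelled groups lay above wild type, with 0.81 in nht1 (SE 0.16, adjusted p = 0.00264), 0.73 in iec1 (SE 0.16, adjusted p = 0.00251) and 0.48 in iec5 (adjusted p = 0.26). The ckk2 gene rose by 0.73 (adjusted p = 0.00988) and 0.62 (adjusted p = 0.0120), while fap7 was at −0.29 and −0.37 and was called in neither.

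A further 4 named rises passed the threshold in the libraries labelled iec1. SPNCRNA.634, over the start of the RNA helicase gene fal1 with 74.1% of its span in the kinase gene shk2, rose from 15.1 and 13.7 CPM to 29.8 and 25.8 (0.94, SE 0.26, adjusted p = 0.0156 by edgeR). The fal1 gene fell by 0.50 (adjusted p = 0.0182), and shk2 was at 0.89 (adjusted p = 0.0534). SPNCRNA.750 rose from 31.1 and 27.2 CPM to 49.0 and 54.3 (0.83, SE 0.21, adjusted p = 0.00729), and SPAP27G11.12, opposite to it, by 0.88 (adjusted p = 0.00292). SPNCRNA.1448, between mep33 and the sulfate-activating gene sua1 on the opposite strand, rose from 290 and 278 CPM to 550 and 359 (0.68, SE 0.17, adjusted p = 0.00545), and sua1 by 0.68 (adjusted p = 0.00684). The fourth was SPNCRNA.1712 (prt), given below with pho1. Whether nht1 and iec1 differ for these features is given by their direct comparison, in which none passed.

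Falls were called in 4 features in nht1 and in 4 in iec1. SPNCRNA.1018, on chrI:4721254-4722882, shares 77 bases with the start of pex7, for a peroxisomal import receptor. It held 58.6 and 71.5 CPM in wild type, 38.7 and 34.2 in nht1, 30.2 and 39.3 in iec1, and 46.8 and 60.1 in iec5. It fell by 0.83 in nht1 (SE 0.21, adjusted p = 0.0139 by edgeR) and by 0.89 in iec1 (SE 0.21, adjusted p = 0.00411), with iec5 overlapping wild type. The pex7 gene fell from 962 and 1129 CPM to 675 and 539 in nht1 (−0.78, SE 0.16, adjusted p = 0.0105) and 484 and 587 in iec1 (−0.96, adjusted p = 0.000794). Coding genes of the opposite strand cover 89.9% of the 1629 bases of SPNCRNA.1018. The gene of largest overlap, SPAC1834.13, held 1.45 to 5.50 CPM, but with 1131 bases it cannot cover that share alone. Levels of any other opposite-strand gene there are not given here. Per kb, pex7 was at 417 CPM and the feature at 29.1, and the part of its count from shared bases was not tested.

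SPNCRNA.889 and SPNCRNA.888 overlap each other where end4, for a clathrin adaptor, and SPAC688.12c converge. Reads over both features were not counted for either. SPNCRNA.889, on chrI:3138602-3139458, has 91.6% of its span in SPAC688.12c and fell from 73.8 and 75.4 CPM to 42.8 and 43.6 in nht1 (−0.79, SE 0.19, adjusted p = 0.0109 by edgeR) and 50.4 and 42.0 in iec1 (−0.70, SE 0.19, adjusted p = 0.0122). SPAC688.12c fell from 72.6 and 73.3 CPM to 41.8 and 42.9 and to 49.5 and 40.8, so that feature and opposite-strand gene held almost the same values. SPNCRNA.888, on chrI:3137359-3138684, has 98.6% of its span in end4 and stayed within 116 to 156 CPM in all libraries. SPNCRNA.1620, wholly inside the tRNA modification gene kae1 and 67 bases over the end of the DNA replication gene dna2, fell from 130 and 113 CPM to 68.6 and 85.4 in nht1 (−0.66, SE 0.18, adjusted p = 0.0277) and 65.9 and 89.8 in iec1 (−0.63, SE 0.18, adjusted p = 0.0190). In iec1, kae1 fell by 0.76 (adjusted p = 0.0239) and dna2 rose by 0.51 (adjusted p = 0.0308). SPNCRNA.1150, with 98.2% of its span in smc6, a gene of DNA repair, fell in iec1 from 240 and 225 CPM to 158 and 166 (−0.52, SE 0.14, adjusted p = 0.0104), as did smc6 (−0.53, adjusted p = 0.0174).

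The smallest called feature was SPNCRNA.498, a candidate small nucleolar RNA of 100 bases on chrII:1078083-1078182. It lies in an intron of ipa1, an mRNA processing gene, which spans bases 1077967 to 1078447 in ASM294v3. It held 87.1 and 81.2 CPM in wild type, 39.0 and 61.1 in nht1, 62.7 and 61.4 in iec1, and 67.9 and 75.5 in iec5. All libraries labelled nht1, iec1 or iec5 lay below wild type, with −0.76 in nht1 (SE 0.19, adjusted p = 0.0167 by edgeR) and −0.44 in iec1 (adjusted p = 0.14). The ipa1 gene was at 0 in every library and yea4, which covers the feature on the opposite strand, at 0 to 2.64 CPM. These genes overlap each other, and reads over both were not counted, so these values do not show that the genes were silent.

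Leaving out 1 library ended many of these calls. SPNCRNA.1271 alone of the 11 calls in nht1 passed in all 8 fits that left out 1 library, and the other 10 reached adjusted p from 0.0508 to 0.298 by edgeR in at least 1 of them. Of the 15 named calls in iec1, those of SPNCRNA.1550, SPNCRNA.1115, SPNCRNA.1446, SPNCRNA.1271 and SPNCRNA.28 passed in all 8, and the other 10 reached 0.0524 to 0.643. In nht1, 7 and 6 calls were lost without wild-type replicate 1 and 2, and 7 and 8 without nht1 replicate 1 and 2. In iec1, 4 and 6 were lost without wild-type replicate 1 and 2, and 8 and 3 without iec1 replicate 1 and 2. Of the named genes, 2 of 15 calls in nht1 and 9 of 26 in iec1 passed in all 8 fits, and the others reached 0.0519 to 0.373 and 0.0502 to 0.245.

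For 103 tested features with at least 50% of their span in an opposite-strand gene, the correlation of log2 fold changes with that gene was r = 0.85 (rho 0.83) in nht1, 0.80 (0.78) in iec1 and 0.77 (0.79) in iec5. The median absolute difference was 0.0582, 0.0559 and 0.0328. Against their same-strand gene, 95 of these features gave r = 0.05, 0.26 and 0.07, with median absolute differences of 0.254, 0.303 and 0.195. For 29 features with at least 50% in a same-strand gene, r with that gene was 0.46, 0.34 and 0.40, and for 55 with under 10% in any coding gene it was 0.29, 0.50 and −0.05. These correlations are descriptions across features, which share libraries, normalization and, where they overlap, reads. Calls were found in all these classes: in iec1, 6 rises and 4 falls among 106, 3 rises among 30, 2 among 28 and 2 among 55. For nht1 the counts were 3 rises and 4 falls, then 1, 1 and 2 rises.

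**Figure D4:**
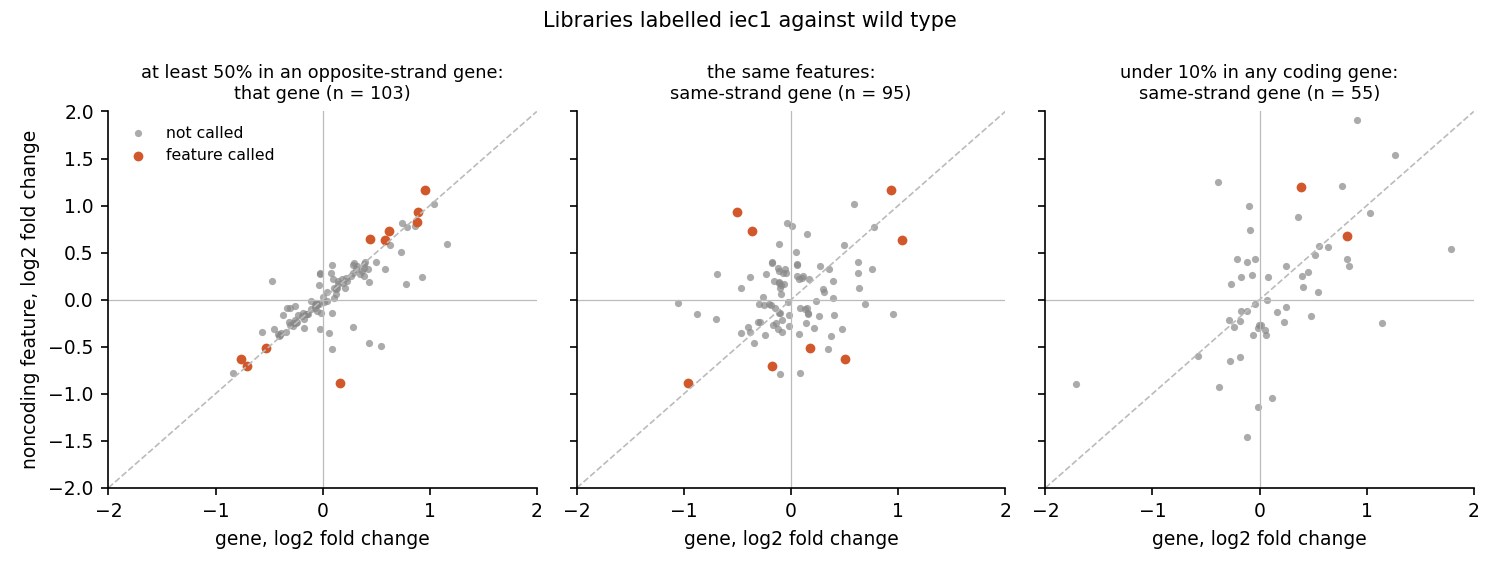
Log2 fold change in the libraries labelled iec1 against wild type, of the gene (horizontal) and of the noncoding feature (vertical), with called features in orange and the line of equal change dashed. Features mostly in an opposite-strand gene follow that gene (r = 0.80, n = 103) more closely than their same-strand gene (r = 0.26, n = 95), and features with under 10% in any gene are in the right panel (r = 0.50, n = 55).

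A change of a feature apart from its same-strand gene was tested on the difference of their log2 CPM with limma, over 1075 pairs of noncoding feature and gene, 206 of them with a same-strand gene as here. In nht1, 2 of the 206 passed, where 0.279% of all pairs did. They were SPNCRNA.1271 against fap7 (1.10, adjusted p = 0.0127) and SPNCRNA.888 against SPAC688.12c (0.80, adjusted p = 0.0325). In iec1, 3 passed, where 0.465% of all did: SPNCRNA.1271 (1.09, adjusted p = 0.0111), SPNCRNA.634 against fal1 (1.41, adjusted p = 0.0409) and SPNCRNA.300 against SPBC1773.03c (−1.33, adjusted p = 0.0291). In iec5 none passed, as in all pairs (0%), with 16 at an unadjusted p under 0.05 and 0 calls by edgeR with the gene as offset. SPNCRNA.300 lies within the aminotransferase gene SPBC1773.03c and held 16.02 and 18.3 CPM in wild type and 19.2 and 16.4 in iec1, while the gene rose from 77.4 and 77.0 CPM to 202 and 202 (1.39, adjusted p = 5.6e-06 by edgeR). The other pairs have the feature over a gene of the opposite strand: SPNCRNA.1271 over ckk2, SPNCRNA.634 over shk2 and SPNCRNA.888 over end4. None of the ratio calls passed in all fits that left out 1 library, with adjusted p from 0.0549 to 0.221 where lost.

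The genes that the features overlap on their own strand were tested in the same way. Of 286, 267 were tested by edgeR, and in nht1 19 rose and 2 fell (7.87%), where 4.13% of 4652 coding genes were called, 3.14% higher and 0.989% lower. In iec1, 48 rose and 7 fell (20.6%), where 10.3% of all were called, 8.04% higher and 2.24% lower. In iec5, 2 rose (0.749%), where 0.408% of all were called. Of 15 tested features on the genes called in nht1 4 were called, and of 43 in iec1 9 were, where 5.02% and 7.76% of all tested features of the class were. Their sign was that of the gene in 7 and 32. Conversely, 7 of the 11 features called in nht1, and 14 of the 17 in iec1, overlapped a called gene on either strand. The same share over all tested features is not given here, and a read over a feature and a gene could count in both tables. No conclusion on separate changes of feature and gene is drawn from these counts.

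Some same-strand genes rose strongly beside a feature that did not pass; these genes were chosen after their values were seen. The gene lsk1, for a kinase of the RNA polymerase II tail, was at 55.6 and 52.5 CPM in wild type, 120 and 152 in nht1, 208 and 167 in iec1, and 65.6 and 47.2 in iec5. It rose by 1.33 in nht1 (SE 0.19, adjusted p = 0.000407 by edgeR) and 1.79 in iec1 (SE 0.19, adjusted p = 7.83e-06). SPNCRNA.240, which shares 25 bases with its start, held 9.37 and 14.4 CPM in wild type, 6.29 and 13.1 in nht1, 19.7 and 15.3 in iec1, and 13.8 and 11.7 in iec5, at −0.31 and 0.54 with neither called. The gene pat1, for the kinase that holds back meiosis, rose from 16.9 and 16.2 CPM to 35.6 and 38.9 in nht1 (1.17, adjusted p = 0.0123) and 40.8 and 30.8 in iec1 (1.10, adjusted p = 0.0087), with SPNCRNA.108 inside it. SPAC5H10.10, for an NADPH dehydrogenase, rose by 0.91 (adjusted p = 0.000953) and 1.11 (adjusted p = 5.62e-05), and SPAC25B8.09, for a methyltransferase, by 0.68 (adjusted p = 0.0252) and 1.16 (adjusted p = 0.000178). Their features SPNCRNA.614 and SPNCRNA.966 were not called. SPNCRNA.614 was at −0.03 in nht1 and 0.09 in iec1, near its opposite-strand gene ecm31 at −0.02 and 0.09. At 31.1 to 49.5 CPM it also had a level near that of ecm31, at 26.6 to 43.5. SPNCRNA.108 had only 3 to 12 counts per library, and its changes of −0.59 (SE 0.75) and −0.35 (SE 0.74) are imprecise. The rise of pat1 in both comparisons, and those of SPAC25B8.09 and SPBC1773.03c in nht1, were lost on leaving out either wild-type library, among others.

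The RNAs annotated as acting on a neighbour were added after values were seen. Of them, prt was called in iec1 and none was called in nht1 or iec5. The nc-tgp1 RNA, on chrII:352335-354234, held 144 and 159 CPM in wild type, 120 and 125 in nht1, 118 and 136 in iec1, and 120 and 124 in iec5. All 6 libraries of these groups lay below wild type, but the changes of −0.31 (SE 0.14, adjusted p = 0.25 by edgeR), −0.25 (adjusted p = 0.29) and −0.30 (adjusted p = 0.67) did not pass. The tgp1 gene, for a transporter of glycerophosphodiesters, was at 25.1 and 17.7 CPM in wild type, 43.4 and 40.7 in nht1, 52.7 and 42.9 in iec1, and 20.8 and 23.3 in iec5. It rose by 0.97 in nht1 (SE 0.24, adjusted p = 0.0291) and by 1.15 in iec1 (SE 0.24, adjusted p = 0.00464), with 0.04 in iec5. The difference between nc-tgp1 and tgp1 was −1.28 in nht1 (SE 0.26, adjusted p = 0.175 by limma) and −1.40 in iec1 (SE 0.26, adjusted p = 0.114), and did not pass. Leaving out wild-type replicate 2 ended the call of tgp1 in both (adjusted p = 0.142 or above in nht1 and 0.0851 in iec1), as did leaving out either nht1 library in nht1.

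The nam1 RNA, on chrII:1742555-1744043, shares 76 bases with the end of mlo3, an RNA export gene, and lies upstream of byr2, for a kinase of the mating pathway. It held 66.5 and 55.0 CPM in wild type, 59.5 and 68.0 in nht1, 66.9 and 38.7 in iec1, and 75.5 and 62.1 in iec5, and every group overlapped wild type (0.07, −0.23 and 0.18). The byr2 gene, which is not one of the same-strand genes of the rule, was at 49.0 and 50.4 CPM in wild type, 87.5 and 102 in nht1, 142 and 176 in iec1, and 60.7 and 57.2 in iec5. It rose by 0.93 in nht1 (SE 0.17, adjusted p = 0.00421 by edgeR) and by 1.68 in iec1 (SE 0.17, adjusted p = 4.65e-06), and was at 0.24 in iec5. Its call in nht1 was lost without nht1 replicate 2 (adjusted p = 0.0742).

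The prt RNA, on chrII:4446359-4448918, covers the acid phosphatase gene pho1 with 55.2% of its span, so that much of its count can be pho1 messenger. It held 216 and 166 CPM in wild type, 264 and 280 in nht1, 361 and 220 in iec1, and 236 and 158 in iec5, with 0.51 in nht1 (adjusted p = 0.13 by edgeR) and 0.60 in iec1 (SE 0.19, adjusted p = 0.0364). The pho1 gene held 180 and 108 CPM, 225 and 225, 307 and 159, and 196 and 105 in the same order, with 0.65 (adjusted p = 0.255) and 0.68 (adjusted p = 0.152). The prt call in iec1 was lost with DESeq2, with noncoding library sizes and in the fit of 2 groups. It was also lost without wild-type replicate 2 or iec1 replicate 1. The prt2 RNA, on chrII:4442542-4445970, covers the phosphate transporter gene pho84 with 54.5% of its span, and held 1363 and 777 CPM in wild type, 1216 and 749 in nht1, 802 and 682 in iec1, and 980 and 809 in iec5. It was at −0.53 in iec1 (SE 0.21, adjusted p = 0.0941), and pho84 at −0.72 (SE 0.24, adjusted p = 0.0646). Without wild-type replicate 1 the change of prt2 in iec1 was −0.07 (adjusted p = 0.889) and without wild-type replicate 2 it was −0.88 (adjusted p = 0.00239). Without nht1 replicate 1 or 2 it was also called (adjusted p = 0.0455 and 0.0496). For both prt2 and pho84, replicate 1 held more than replicate 2 in all 4 groups, and the 2 wild-type libraries differed more from each other than the group means did, with pho84 at 1324 and 738 CPM.

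The nc-tco1 RNA, on chrI:3588585-3591355, spans the whole of tco1 and lies wholly in coding genes of both strands. It held 38.4 and 23.8 CPM in wild type, 36.5 and 32.4 in nht1, 41.7 and 34.9 in iec1, and 46.8 and 27.1 in iec5, and every group overlapped wild type. Its log2 fold change was 0.15 in nht1, 0.29 in iec1 and 0.24 in iec5, none of them called, and tco1 was at 0.35, 0.21 and 0.46.

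**Figure D5:**
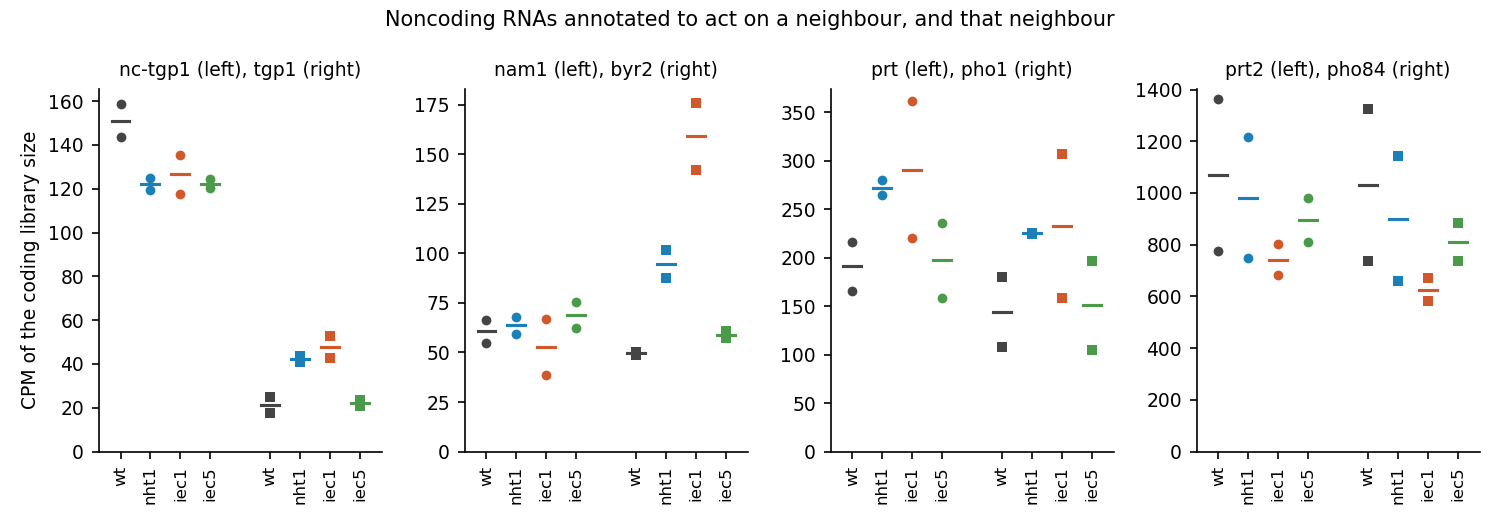
CPM of each library for 4 noncoding RNAs (circles) and the gene each is annotated or known to act on (squares), with bars at group means. The tgp1 and byr2 genes lie above wild type in nht1 and iec1, at 40.7 to 52.7 and 87.5 to 176 CPM, while nc-tgp1 lies below wild type in all 3 labelled groups and nam1 overlaps it.

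The groups labelled nht1, iec1 and iec5 were also compared with each other. No feature passed for iec1 against nht1, where 0.547% of all noncoding features did, with 10 at an unadjusted p under 0.05 and 0 calls by DESeq2. For iec5 against nht1, 1 feature passed, where 1.46% of all did: SPNCRNA.1115 was lower in iec5 (−0.69, SE 0.17, adjusted p = 0.0462 by edgeR), a call lost without nht1 replicate 2 or iec5 replicate 2. For iec1 against iec5, 4 features were higher in the libraries labelled iec1, where 7.85% of all were called. They were SPNCRNA.1115 (1.07, SE 0.17, adjusted p = 0.000169), SPNCRNA.1446 (1.16, SE 0.19, adjusted p = 0.000169), SPNCRNA.750 (0.91, SE 0.21, adjusted p = 0.00617) and SPNCRNA.680 (1.08, SE 0.34, adjusted p = 0.0496). SPNCRNA.680 shares 58 bases with the start of SPAC4G8.04, for a GTPase-activating protein, and held 14.2 and 23.8 CPM in iec1 and 8.57 and 9.62 in iec5. Its call was lost in 5 fits that left out 1 library, those of iec5, nht1 and iec1 replicate 2. It was also lost with DESeq2, RLE factors, noncoding library sizes and the fit of 2 groups.

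Genes that act on noncoding transcripts were also examined, as a list of 36 for the nuclear exosome, Mmi1 and its partners, transcription termination, and the histone deacetylases and remodellers that silence transcription inside genes. Of 34 tested, 1 rose in nht1 (2.94%, where 4.13% of all coding genes were called), and 2 rose and 2 fell in iec1 (11.8%, where 10.3% were). None passed in iec5, where 0.408% of all did, with 2 at an unadjusted p under 0.05 and 0 calls by DESeq2. The risers were cph1, of a histone deacetylase complex, in nht1 (0.76, SE 0.18, adjusted p = 0.0201 by edgeR) and in iec1 (0.70, adjusted p = 0.0157), and pst2, of the same complex, in iec1 (0.46, adjusted p = 0.0464). The genes that fell in iec1 were alp13, of the same complex (−0.67, adjusted p = 0.0463), and air1, a zinc-knuckle gene of the exosome cofactor (−0.77, adjusted p = 0.0155). The exosome nuclease gene rrp6 was at −0.21 in nht1 and −0.38 in iec1 (adjusted p = 0.0724).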

How the data were processed

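The authors deposited raw counts per coding and per noncoding feature. The submitters' processing notes name HISAT2 2.1.0, featureCounts 1.6.1, DESeq2 1.28.0 and build ASM294v2. The strand setting and the handling of reads with several alignments are not given in sources used here. Libraries were strand-specific, per the labels' protocols. Feature coordinates are those of the files. Names, products and sequences are RefSeq ASM294v3.

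The noncoding counts took the coding library sizes and TMM factors. The edgeR 4.0.16 quasi-likelihood test in R 4.3.3, after filterByExpr, was fitted to all 8 libraries at once, with Benjamini-Hochberg adjustment over 1096 noncoding features or 4652 coding genes and a threshold of 0.05. The biological coefficient of variation was 13.1% and 11.9%. Standard errors are approximate, the size of the log2 fold change divided by the root of F. Feature and gene were compared with limma 3.58.1 as a difference of log2 CPM, computed with prior count 2. Alternatives were DESeq2 1.42.0, RLE factors, noncoding library sizes, no filter, a replicate block, fits of 2 groups, a fold change minimum, a longer overlap and leaving out each library. Features were named by size of change among calls with groups that do not overlap, by level, by excess over the gene and by the edge of the rule. The RNAs annotated as acting on a neighbour, and features on the most changed same-strand genes, were added after values were seen. The features, lists and rules were chosen with earlier results of these data known. The main fits did not pair libraries by replicate number.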

Additional observations from a re-analysis of the deposited data

Results flagged for a closer look

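Differences between the groups labelled nht1, iec1 and iec5 were tested directly, and 5 passed in edgeR's quasi-likelihood test with Benjamini-Hochberg adjustment. SPNCRNA.1115 was lower in iec5 than in nht1 (−0.69, adjusted p = 0.0462) and, against iec5, higher in those labelled iec1 (1.07). SPNCRNA.1446 (1.16), SPNCRNA.680 (1.08) and SPNCRNA.750 (0.91) also had higher values in those libraries than in iec5. All groups have 2 libraries, too few to look for a library far from the others.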

How the results depend on the processing

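Of 31 named feature calls, 8 passed in every refit (other tool, factors, library sizes, no filter, block, 2 groups, each library left out), and of 41 named gene calls 11 did, with none reversed; the minimum fold and the longer overlap were applied to counts only. Counts of called features on leaving out 1 library ran from 3 to 12 (nht1, lowest without nht1 replicate 2), 11 to 18 (iec1), 0 to 0 (iec5 and iec1 against nht1), 0 to 2 (iec5 against nht1) and 2 to 5 (iec1 against iec5). For the ratio they were 0 to 2 in nht1 and in iec1 and 0 to 0 in iec5, for same-strand genes 5 to 25, 28 to 56 and 0 to 2, and for the 36 listed genes 0 to 1, 0 to 4 and 0. Fits of 2 groups only gave 6 features in nht1, ratio calls of 1 in nht1 and 0 in iec1, 1 same-strand gene in iec5 and 2 listed genes in iec1. With a log2 change of at least 1 in either direction, 0 features were left in nht1, 3 in iec1 and 0 for iec5 against nht1, with 5 and 15 same-strand genes and 0 and 0 listed genes in nht1 and iec1. An overlap of at least 100 bases left 3 features in nht1, 4 in iec1 and 1 for iec1 against iec5. The replicate block gave 19 features in nht1, 31 in iec1, 5 for iec5 against nht1 and 11 for iec1 against iec5. It also gave 33 same-strand genes and 3 listed genes in nht1. Correlations of same-numbered deviations ran from −0.0722 to 0.280. With 2 numbers, these values cannot decide whether same-numbered libraries share an effect. For iec5 against nht1, DESeq2, RLE factors and noncoding library sizes each gave 0 and no filter 2. DESeq2 gave 8 features in nht1 and 14 in iec1. Pairing each feature with the gene of either strand of largest overlap, chosen after seeing the data, gave ratio calls of 0 in nht1 and 1 in iec1. By edgeR, prt2 passed in iec1 with noncoding library sizes (−0.64, adjusted p = 0.0411), where all features shifted by a median of −0.0975, with no filter (adjusted p = 0.0354) and with the replicate block (−0.48, adjusted p = 0.00378). The causes of these differences were not tested. Without the filter 259 features were tested, with 14 calls in nht1 and 19 in iec1. The 30 features at 0 counts could not be tested. Of these, 26 are wholly covered by other noncoding features, and reads over 2 features of the same table were not counted.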
